A study of Mus musculus with 6 samples.

Results

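Foxf1, Foxf2 and Foxl1 are forkhead transcription factor genes of the mesenchyme, the connective tissue and muscle that lies under the gut epithelium. They were chosen by name, as the row with the highest mean among rows carrying that single gene symbol, and all 3 were measured among 19938 genes in whole colon of mice. The mutants were 3 VilCre;Ihhflox/flox mice, in which a Cre recombinase driven by the villin promoter, active in gut epithelium, deletes Ihh, which encodes the ligand Indian hedgehog. The 3 controls are labelled wild type, and their alleles are not described further in the sources used here. Each mutant had a control littermate, which gives litters 1 to 3 and 1 Affymetrix Mouse Gene 1.0 ST array per mouse. The design text places the harvest at postnatal day 12, and the growth protocol allows day 9 to day 12. Levels are log2 values from RMA, the array summary the authors used, and a change is the mutant level minus the control level. A gene is said to have risen or fallen when its adjusted p in limma, with the litter as a block, was under 0.05.

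Hedgehog ligands leave the gut epithelium and reach cells of the underlying mesenchyme, where the receptor Ptch1 releases Smo and the Gli factors switch on target genes. Foxf1 and Foxf2, a closely related pair, and Foxl1 are known as mesenchymal genes that respond to this signal in the developing gut. Foxf1 and Foxf2 are known for roles in gut muscle, matrix and BMP production, and Foxl1 marks subepithelial cells that supply Wnt and BMP signals to the crypts. They are known as genes of mesenchyme and not of epithelium, the layer in which Ihh is deleted. Because the arrays measured whole colon, fewer cells of a type and less RNA per cell cannot be told apart.

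Some facts of the series bear on every value below. Array medians lay between 7.10 and 7.14, and Pearson correlations between arrays, taken across rows of the table, between 0.985 and 0.994. The Ihh signal was 8.50 to 8.68 in controls and 8.22 to 8.37 in mutants and did not pass (change -0.30 ± 0.09 SE, adjusted p = 0.139), and the deleted part of the gene is not given in the sources used here. Xist, the RNA of the inactive X chromosome, was 11.96, 12.03 and 11.92 in control 1, mutant 2 and mutant 3, and 5.83 to 6.41 in the other mice, while Y-linked Uty was 4.20 to 4.30 in the former and 9.39 to 9.72 in the latter. Littermates therefore differed in sex in each litter, with the mutant on the low Xist side in litter 1 and on the high side in litters 2 and 3. Among 12 genes of intestinal epithelium the mean level was 11.13 to 11.24 in controls and 11.08 to 11.25 in mutants, so markers of the lining were present in both groups.

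Foxf1 was lower in every mutant. Controls 1 to 3 had levels of 10.23, 10.01 and 10.13, against 9.10, 9.52 and 9.53 for mutants 1 to 3. The groups did not overlap, mutant 1 was the lowest array and control 1 the highest, so the largest difference fell within litter 1. The mean was 10.12 ± 0.108 for controls and 9.38 ± 0.246 for mutants (SD, n = 3 each). The change was -0.74 ± 0.13 (SE; 95% confidence interval -1.03 to -0.45), a level 1.67-fold lower in mutants (adjusted p = 0.0209). Within litters the change was -1.13, -0.49 and -0.60. Without litter 1 it was -0.55, with adjusted p = 0.0259.

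A further row of the table carries the Foxf1 symbol, and there too every mutant was below every control. In this row controls 1 to 3 had levels of 9.69, 9.59 and 9.84, and mutants 1 to 3 had 8.39, 9.0 and 9.07. Mutant 1 was again lowest, and the change was -0.89, with -1.30, -0.59 and -0.77 in litters 1 to 3. With the rows of each gene averaged, Foxf1 changed by -0.81 (adjusted p = 0.0177).

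Foxf2 showed the largest change of the 3 genes. Controls 1 to 3 stood at 9.17, 9.21 and 9.12, and mutants 1 to 3 at 7.64, 8.06 and 8.10. The controls lay within 0.1 of each other, every mutant was more than 1 unit below its littermate, and mutant 1 was again the lowest. The means were 9.17 ± 0.0425 and 7.93 ± 0.256 (SD, n = 3 each). Foxf2 thus changed by -1.24 ± 0.11 (SE; 95% confidence interval -1.49 to -0.98), 2.36-fold lower in mutants (adjusted p = 0.00166). The changes were -1.54, -1.15 and -1.03 in litters 1 to 3, and by size this was the 26th largest fall among 19938 genes, where Foxf1 was 129th and Foxl1 380th.

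The start of Foxf2 is shown because it is the member with the largest change. Of the 3 genes, 1 matched the RefSeq promoter table on GRCm38.p6, which gives 250 bases before and 50 after the start of a gene. The Foxf2 window lies at chr13:31625566-31625865 on the + strand, and capitals mark the GC box letters GGGCGG, the core that Sp1-family factors bind.
Foxf2: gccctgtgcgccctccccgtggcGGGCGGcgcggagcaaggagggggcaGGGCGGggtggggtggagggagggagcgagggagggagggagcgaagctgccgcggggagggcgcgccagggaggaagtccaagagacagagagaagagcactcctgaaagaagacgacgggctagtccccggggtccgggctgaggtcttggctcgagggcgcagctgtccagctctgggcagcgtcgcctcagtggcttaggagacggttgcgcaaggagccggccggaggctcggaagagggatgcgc

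GGGCGG stood 2 times in this window, and on either strand 35.7% of 32851 promoter windows of the same length held it. The window was 71.3% G and C, above 92.2% of those windows, and held 27 CpG pairs against a median of 7. The Gli consensus TGGGTGGTC was found 0 times on either strand, and 0.253% of all windows held it. The letters TGTTTAC, a forkhead core site, and TATAAA were also found 0 times, against 3.65% and 13.6% of windows. These are matches of letters within 300 bases and say nothing of sites elsewhere.

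Foxl1 had the smallest change and the tightest replicates. For Foxl1 the levels were 6.67, 6.61 and 6.61 (controls 1 to 3) and 6.07, 6.17 and 6.19 (mutants 1 to 3). No mutant reached the lowest control, and mutant 1 was once more the lowest array. The means were 6.63 ± 0.0352 and 6.14 ± 0.0646 (SD, n = 3 each). The change was -0.49 ± 0.08 (SE; 95% confidence interval -0.68 to -0.29), 1.40-fold lower in mutants (adjusted p = 0.0217), with -0.60, -0.44 and -0.42 in litters 1 to 3. Without litter 3 the adjusted p was 0.0504, with a change of -0.52. Foxl1 was just inside the dimmest 30% of genes (29.9% of genes were dimmer), and its signal over background was not measured here, so the size of its change is uncertain.

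**Figure D1:**
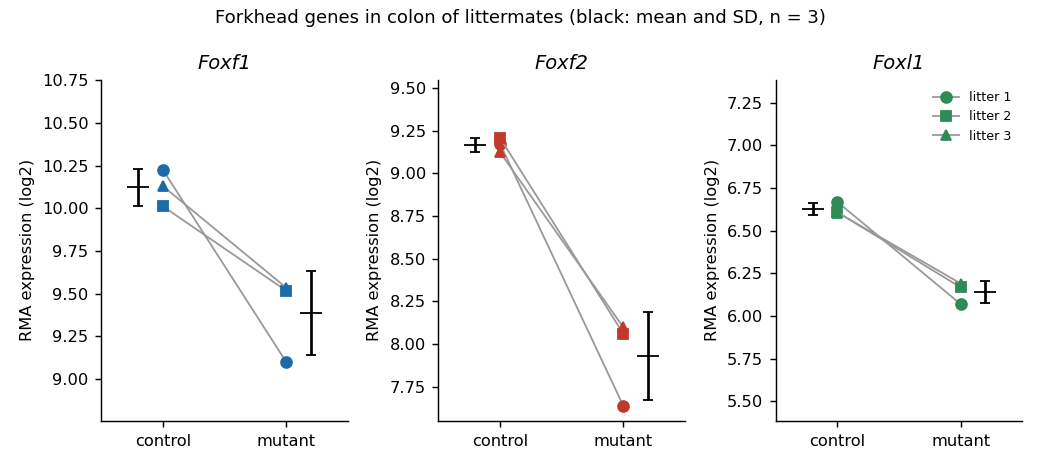
RMA expression (log2, vertical axis, the same span in each panel) of Foxf1, Foxf2 and Foxl1 in control and mutant mice, with a line joining the littermates, a marker shape per litter, and black bars for mean and SD (n = 3 each). Each line falls, and mutant 1 (circle) is the lowest mouse in all 3 panels, at 9.10, 7.64 and 6.07.

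All 3 genes fell, against 2.11% of the 19938 genes tested (421 genes; 1.66% rose, and 3.77% passed in either direction), and in all 3 every mutant lay below every control, against 9.78% of genes. The members had been chosen with these results known, so their number is a description. Mutant 1 held the lowest value of all 3, which was so for 158 of the 421 genes that fell (37.5%). Across genes that fell, the median change was -0.55, -0.62 and -0.59 in litters 1 to 3, so a larger fall in litter 1 was not general.

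Foxf2 changed more than Foxf1 and Foxl1 in each litter. The change of Foxf2 exceeded that of Foxl1 by 0.94, 0.71 and 0.61 and that of Foxf1 by 0.41, 0.65 and 0.43 in litters 1 to 3. Foxf1 exceeded Foxl1 by 0.53, 0.05 and 0.18. Each of these 3 pairs had p = 0.25 in an exact two-sided sign-flip permutation test over 3 litters, also after Benjamini-Hochberg adjustment, and 0.25 is the smallest p that 3 litters can give. Probes differ in how far their signal follows the RNA, so a larger change on the array need not be a larger change in transcripts.

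Each gene was also lower in mutants within each sex. Between the 2 mutants and the 1 control with high Xist the difference was -0.70 for Foxf1, -1.10 for Foxf2 and -0.49 for Foxl1. Between the 1 mutant and the 2 controls with low Xist it was -0.97, -1.53 and -0.54. With sex in place of the litter, an alternative added after the data were seen, adjusted p was 0.00661, 0.00253 and 0.0150, and with the Xist level beside the litter it was 0.00477, 0.00200 and 0.0146. That last fit leaves fewer residual degrees of freedom than the main fit. The low Xist mutant is mutant 1, so the larger changes in litter 1 and the sex of its mice cannot be told apart.

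In gene order, Foxf1 and Foxl1 lie close together on mouse chromosome 8, with Mthfsd and the forkhead gene Foxc2 between them, and Foxf2 lies on chromosome 13 between the forkhead genes Foxq1 and Foxc1. The nearest 5 measured genes on either side, from the RefSeq gene order, made up 22 genes other than the members. Of these, 0 fell, 1 rose and 21 did not pass (limma; at an unadjusted p under 0.05, 2 were lower and 1 was higher), and their median change was 0.01. Over all genes 2.11% fell and 1.66% rose, so 0 falls among 22 genes is near that share. Foxc2, a factor of lymphatic vessels, changed by -0.15 ± 0.09 (adjusted p = 0.510) and Mthfsd by 0.12 ± 0.09 (adjusted p = 0.647), although both stand between genes that fell. Foxc2 was among the dimmest 30% of genes (24.3% were dimmer), where a change is hard to see. Irf8, a myeloid cell factor on the other side of Foxf1, changed by 0.06 ± 0.09.

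Around Foxf2 the forkhead neighbours showed changes near 0. Foxc1 was 5.60, 5.28 and 5.50 in controls and 5.62, 5.25 and 5.54 in mutants, with a change of 0.01 ± 0.08. It too was among the dimmest 30% of genes (16.4% were dimmer), so a change could be missed. Foxq1, which is also made by epithelium, changed by -0.04 ± 0.09. The neighbour with the lowest value was 1700018A04Rik, a long noncoding RNA next to Foxf2, at -0.30 ± 0.09 (adjusted p = 0.140), singled out after its value was seen. Gmds, an enzyme of GDP-fucose synthesis, rose by 0.61 ± 0.09 (adjusted p = 0.0110). Its level was 10.27, 10.31 and 10.47 in controls and 10.90, 11.03 and 10.94 in mutants, so the groups stood apart in the direction opposite to Foxf2.

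**Figure D2:**
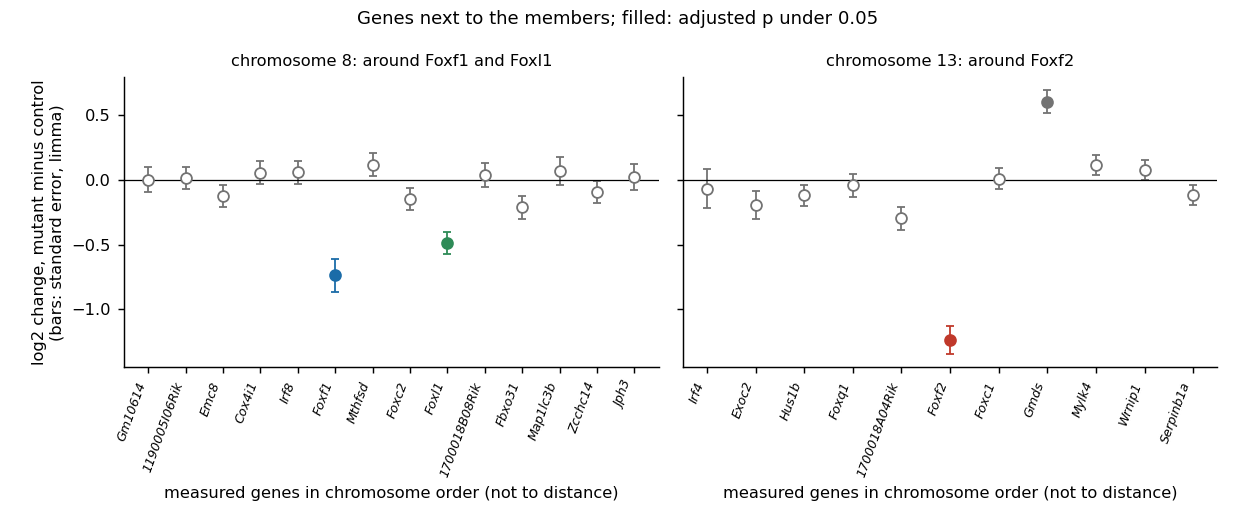
Change (log2, mutant minus control, with the limma standard error) of the measured genes around Foxf1 and Foxl1 (left) and around Foxf2 (right), in chromosome order and not to distance, filled where adjusted p was under 0.05. The members stand at -0.74, -0.49 and -1.24, 21 of the 22 neighbours did not pass, and Gmds is at 0.61. Of all genes 3.77% passed in either direction.

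The forkhead family has 44 genes by symbol in the RefSeq table, and 43 were measured. Of the 40 besides the members, 0 fell, 1 rose and 39 did not pass (limma; at an unadjusted p under 0.05, 3 were lower and 2 were higher). These counts are near the shares over all genes, of which 2.11% fell and 1.66% rose. The changes of the 40 genes ran from -0.32 to 0.57 with a median of -0.02, beside 0.01 over all genes. Each member lay below that range, but the members were chosen with these results known and the difference was not tested. The 95% confidence interval of Foxl1 (-0.68 to -0.29) overlapped that of Foxo3, the lowest of the 40 (-0.52 to -0.13). Of these 40 genes 13 were among the dimmest 30%, where a change is hard to see.

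Foxa3, a factor of gut endoderm, was the gene that rose. It was 8.29, 8.08 and 8.21 in controls and 8.85, 8.88 and 8.55 in mutants, a change of 0.57 ± 0.10 (adjusted p = 0.0265). Its groups did not overlap, but the call was lost without litter 1 (adjusted p = 0.0662) and without litter 2 (0.0571), and with sex in place of the litter (0.0526). Its relative Foxa1 was 9.09 to 9.27 in controls and 9.33 to 9.59 in mutants and did not pass (0.25 ± 0.09). Apart from the members, the lowest values were those of Foxo3 (-0.32 ± 0.09, adjusted p = 0.0922) and Foxp2 (-0.27 ± 0.08, adjusted p = 0.134), both with every mutant under every control and both named after their values were seen. Of the 40 forkhead genes besides the members, 4 had every mutant under every control, against 9.78% of all genes. In 6 of the 40, Foxa3 and Foxa1 among them, every mutant was above every control. The share of all genes with that upward separation was not counted.

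**Figure D3:**
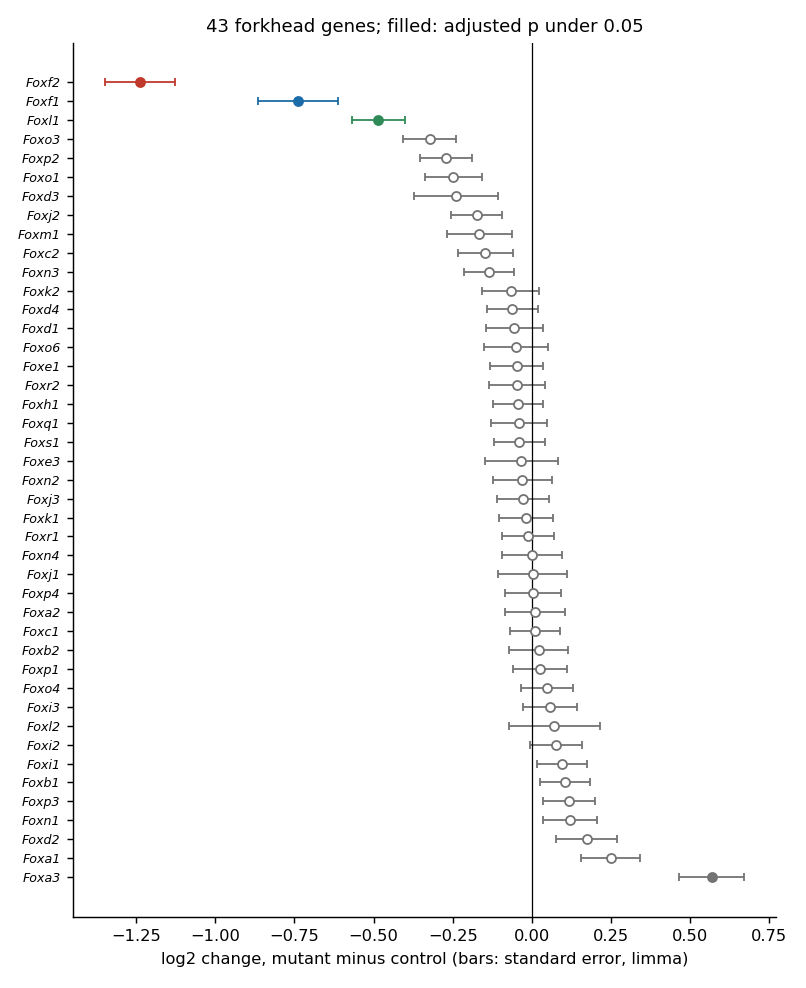
Change (log2, mutant minus control, horizontal axis, with the limma standard error) of 43 forkhead genes in order of size, filled where adjusted p was under 0.05. Foxf2, Foxf1 and Foxl1 are the lowest entries, Foxa3 at 0.57 is the highest, and the remaining 39 genes are open.

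Readouts of the hedgehog pathway were lower in the same mice. Of 17 measured hedgehog ligands, receptors and regulators 3 fell, 0 rose and 14 did not pass (limma; at an unadjusted p under 0.05, 7 were lower and 0 were higher), with a median of -0.16 beside 0.01 over all genes. The 3 were Hhip, Ptch1 and Gli1, which are themselves induced by the signal. Their litter pattern differed from that of the forkhead genes. Hhip, a hedgehog-binding inhibitor, changed by -1.82, -2.11 and -2.54 in litters 1 to 3. Ptch1, the receptor, changed by -1.26, -1.52 and -1.53. Both had their smallest change in litter 1, where each of the 3 forkhead genes had its largest, and that contrast was not tested. Gli1, an activator among the Gli factors, changed by -0.74, -0.88 and -0.72. Gpr161, a receptor of the cilium that restrains the pathway, stood at -0.33 ± 0.08 and did not pass.

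Genes that earlier work links to Foxf1, Foxf2 or Foxl1 moved in both directions. Whether they act below the members in these mice was not tested. Of 15 such genes, all measured, 6 fell, 1 rose and 8 did not pass, and the median was -0.32. At an unadjusted p under 0.05 in limma, 8 were lower and 1 was higher. Of all genes, 2.11% fell and 1.66% rose. The 6 that fell are counted again in lists below, so they are not separate evidence. Bmp4, Bmp2 and Wnt5a stand with Foxl1-positive cells, Kdr and Tek with blood endothelium, and Myocd with smooth muscle. The BMP ligand gene Bmp4 was 9.78, 9.88 and 9.89 in controls and 8.86, 8.67 and 8.90 in mutants and fell with adjusted p = 0.00159. Wnt5a, a ligand of noncanonical Wnt signalling, was 9.18, 9.05 and 9.01 in controls and 8.22, 8.52 and 8.42 in mutants and fell by 0.69 ± 0.10 (adjusted p = 0.0137). Like the forkhead genes it had its lowest value in mutant 1. Sfrp1, a secreted Wnt antagonist, rose, from 8.54, 8.38 and 8.39 in the 3 controls to 9.40, 9.21 and 9.08 in the 3 mutants. Kdr, a receptor on vessel cells, fell by 0.61 ± 0.08, in step over litters 1 to 3 at -0.61, -0.60 and -0.62. The other genes that fell were Bmp2, Myocd and Tek, and the call was lost without litter 3 for Myocd (adjusted p = 0.0520) and Tek (0.119), without litter 1 for Myocd (0.0565) and without litter 2 for Tek (0.0597). Col1a1, a main fibrillar collagen, was 12.98, 13.16 and 13.13 in controls and 12.24, 13.19 and 13.20 in mutants, so that only mutant 1 was low, and it did not pass (adjusted p = 0.626).

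Other transcription factors of gut mesenchyme had changes between -0.76 and 0.32. None was as far below 0 as Foxf2, but Tbx2 (-0.76) stood beside Foxf1 (-0.74), and Tbx2, Nkx2-3, Zeb2, Tcf4 and Snai2 all had lower values than Foxl1 (-0.49), with no test of these differences. Of 27 measured, 6 fell, 0 rose and 21 did not pass (limma; at an unadjusted p under 0.05, 13 were lower and 2 were higher), with a median of -0.13. Tbx2, a T-box repressor, was 8.70, 8.65 and 8.72 in controls and 7.99, 8.01 and 7.81 in mutants and fell by 0.76 ± 0.09 (adjusted p = 0.00506). Nkx2-3, a homeobox factor of gut and spleen mesenchyme, was 8.54, 8.67 and 8.66 in controls and 7.71, 8.14 and 7.87 in mutants and fell by 0.72 ± 0.09 (adjusted p = 0.00695). Tcf4, a basic helix-loop-helix factor, and Snai2, the Slug repressor, fell by 0.62 ± 0.09 and by 0.53 ± 0.08, the latter with adjusted p = 0.0523 without litter 3. Zeb2 and Nr2f1 fell by 0.68 ± 0.11 and by 0.41 ± 0.08, and for Nr2f1 the call was lost without litter 1 (0.0805), without litter 3 (0.148) and without the litter block (0.0608). In contrast Barx1 and Hand2, further gut mesenchyme factors named after their values were seen, stood at 0.03 ± 0.08 and at 0.00 ± 0.10.

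Foxl1 is used as the marker of subepithelial cells that also express other signal genes, and many of these genes were lower. Of 22 measured, 10 fell, 1 rose and 11 did not pass, with a median of -0.42, where 2.11% of all genes fell and 1.66% rose. At an unadjusted p under 0.05 in limma, 16 were lower and 2 were higher. Among those that fell, Dkk3 (adjusted p = 0.0493) lost its call under 10 of 15 other settings and Pdgfra under 3. In 15 of the 22 genes every mutant lay below every control, against 9.78% of all genes. Bmp4, Bmp2, Wnt5a, Gli1, Sox6 and Pdgfra also stand in other lists. Bmp5, a BMP ligand gene, had the largest fall of the list (-1.89 ± 0.14), and Agt, the angiotensinogen gene, fell by 1.05 ± 0.12 (adjusted p = 0.00516). The gene that rose was F3, tissue factor (0.43 ± 0.09), and its call was lost without litter 1 (adjusted p = 0.0851), without litter 3 (0.142) and without the litter block (0.0821). Agt was 9.36, 9.56 and 9.33 in controls and 8.66, 8.20 and 8.24 in mutants. Genes of the same list that did not pass include Bmp3, at 0.17 ± 0.08, and Rspo3, a Wnt amplifier, at 0.22 ± 0.09. The mean level over the 22 genes was 8.65 to 8.76 in controls and 8.23 to 8.32 in mutants.

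Some markers of the cell types that can express the members were also lower, with counts that differed between the types. Over 14 smooth muscle genes the mean level was 11.03 to 11.08 in controls and 10.30 to 10.75 in mutants, lowest in mutant 1, and 9 of 14 fell (2 without litter 1, and 6 without the litter block). Over 12 blood endothelium genes it was 8.48 to 8.72 and 8.10 to 8.27, and 6 of 12 fell (2 without litter 3, 4 without litter 1, and 4 without the litter block). Over 12 fibroblast genes it was 11.30 to 11.39 and 10.91 to 11.22, and 3 of 12 fell (2 without any 1 of the litters). Their median was -0.22, and at an unadjusted p under 0.05, 5 were lower and 0 were higher (limma). The 9 fibroblast genes that did not pass included Dpt (-0.24 ± 0.08) and Vim (-0.23 ± 0.09). They also included the matrix genes Dcn and Lum, at 0.11 ± 0.08 and -0.01 ± 0.09. Of 7 pericyte genes Rgs5 fell (adjusted p = 0.0154, and 0.0610 without litter 3), and of 3 genes of the interstitial cells of Cajal Ano1 fell (adjusted p = 0.00276), with list medians of -0.19 and -0.12. The other 6 pericyte genes and 2 Cajal cell genes did not pass. Among them Pdgfrb (-0.32 ± 0.08) and Cspg4 (-0.31 ± 0.11) had every mutant below every control, as 9.78% of all genes did. Also among them were the pericyte channel genes Abcc9 (0.01 ± 0.10) and Kcnj8 (0.09 ± 0.09) and Kit, the receptor that defines Cajal cells (0.01 ± 0.09). At an unadjusted p under 0.05, 3 of 7 pericyte genes and 1 of 3 Cajal cell genes were lower and 0 were higher (limma). The part of cell numbers in the change of the members was not tested.

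In litter 1 the median change was -0.76 over smooth muscle genes, beside -1.13 for Foxf1, -1.54 for Foxf2 and -0.60 for Foxl1. It was -0.51 in litter 2 and -0.32 in litter 3, where Foxf1 stood at -0.49 and -0.60, Foxf2 at -1.15 and -1.03, and Foxl1 at -0.44 and -0.42. Foxf2 was thus further from 0 than the median of each list in every litter, the sex-linked genes aside, while Foxf1 in litter 2 and Foxl1 in litters 1 and 2 were not further from 0 than the smooth muscle median. The medians of blood endothelium genes were -0.37, -0.37 and -0.38 and of fibroblast genes -0.35, -0.09 and -0.09 in litters 1 to 3.

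**Figure D4:**
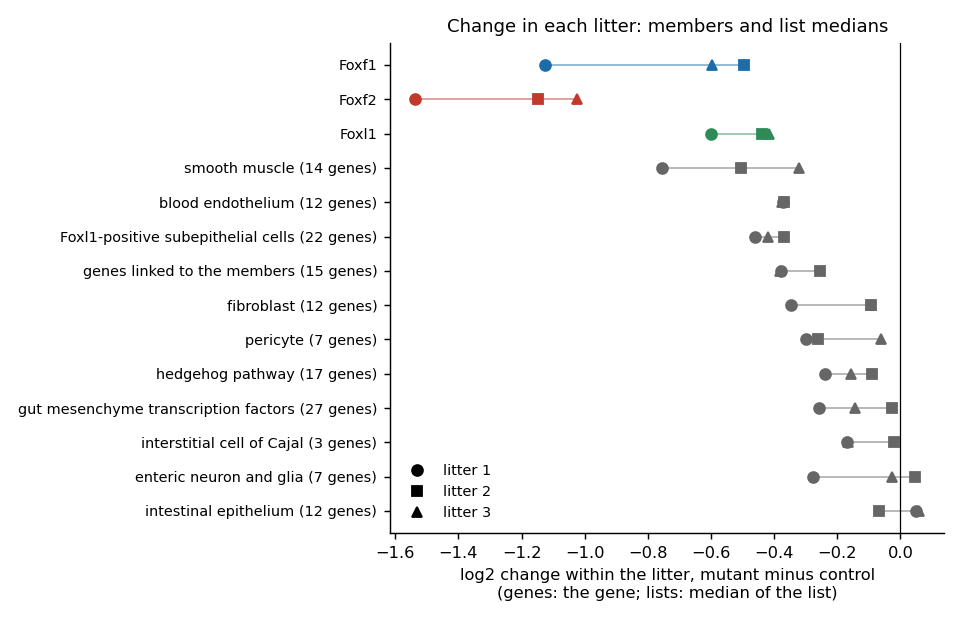
Change within each litter (log2, mutant minus control, horizontal axis; circle, square and triangle for litters 1, 2 and 3) of the 3 genes and, in grey, the median over each gene list. Foxf2 lies left of all list medians in each litter, and smooth muscle medians run from -0.76 in litter 1 to -0.32 in litter 3.

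Other cells that a colon sample can hold were set beside these. Of 12 intestinal epithelium genes 0 fell and 0 rose (limma; at an unadjusted p under 0.05, 1 was lower and 1 was higher), with a median of -0.02. Of 7 enteric neuron and glia genes 0 passed in either direction (limma; 0 at an unadjusted p under 0.05), with medians of -0.28, 0.05 and -0.03 in litters 1 to 3. Of 7 leukocyte genes 2 rose, Itgam (adjusted p = 0.0160) and Cd14 (0.0441), and neither call held without litter 3 (0.0546 and 0.259) or without the litter block (0.0515 and 0.0760), nor that of Cd14 without litter 1 (0.0502) or litter 2 (0.0877). The leukocyte median was -0.08, and at an unadjusted p under 0.05, 2 genes were higher and 2 were lower. The lower ones were the macrophage genes Adgre1 (-0.43 ± 0.10, adjusted p = 0.0641) and Csf1r (-0.38 ± 0.09, adjusted p = 0.0670), which did not pass. In both, every mutant lay below every control, as in 9.78% of all genes. Of 5 mesothelium genes Upk1b rose (adjusted p = 0.0309, but 0.0707 without litter 2, 0.0561 without litter 3 and 0.236 without the litter block), and 3 were higher at an unadjusted p under 0.05. Among 4 skeletal muscle genes and 4 adipocyte genes 0 passed (limma; at an unadjusted p under 0.05, 2 and 0 were lower). Over 6 small intestinal enterocyte genes the mean level was 7.20 to 7.50 in controls and 7.55 to 8.04 in mutants, with 0 that passed (limma; 3 higher at an unadjusted p under 0.05). The only measured red blood cell gene, Alas2, rose by 0.37 ± 0.08 (adjusted p = 0.0490), a call that was lost without litter 1 (0.0522), litter 2 (0.149) or litter 3 (0.254). The part of such tissue in the change of the members was not tested.

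The genes most like each member were found by the root mean square difference over the 6 arrays after each gene was centred on its own mean. For Foxf1 they were the smooth muscle tropomyosin gene Tpm2 (difference 0.0531), the caveolar protein gene Ehd2 (0.0625), the BMP-induced gene Id4 (0.0714), the collagen VI chain gene Col6a2 (0.0714) and the fatty acid desaturase gene Fads1 (0.0787). Tpm2 was 11.35, 11.07 and 11.23 in controls and 10.28, 10.68 and 10.75 in mutants. Its order of mice was that of Foxf1 in each group, which the choice by likeness over these arrays favours. For Foxf2 they were the secreted protease gene Htra1 (0.147), the chemokine gene Cxcl14 (0.167), the adhesion molecule gene Ncam1 (0.170), Cpxm2 (0.180) and the collagen gene Col12a1 (0.182). Htra1 was 8.71, 8.68 and 8.58 in controls and 7.31, 7.91 and 7.84 in mutants. It was lowest in mutant 1, which its choice by likeness to Foxf2 also favours.

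The genes nearest to Foxl1 came closer than those of the other members. They were Arhgef25 (0.0244), Dennd5a (0.0351), the growth factor gene Csf1 (0.0437), the sodium-calcium exchanger gene Slc8a1 (0.0468) and Emid1 (0.0492). Arhgef25 was 9.44, 9.39 and 9.36 in controls and 8.83, 8.95 and 9.02 in mutants. The members were not each other's nearest genes. Among 18709 genes ranked, Foxl1 was 88th from Foxf1 at a difference of 0.171, and Foxf2 was 563rd from Foxf1 at 0.261. Ranked from Foxf2, Foxf1 was 36th and Foxl1 229th. Ranked from Foxl1, Foxf1 was 1196th and Foxf2 17477th. The measure also counts the size of a change.

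**Figure D5:**
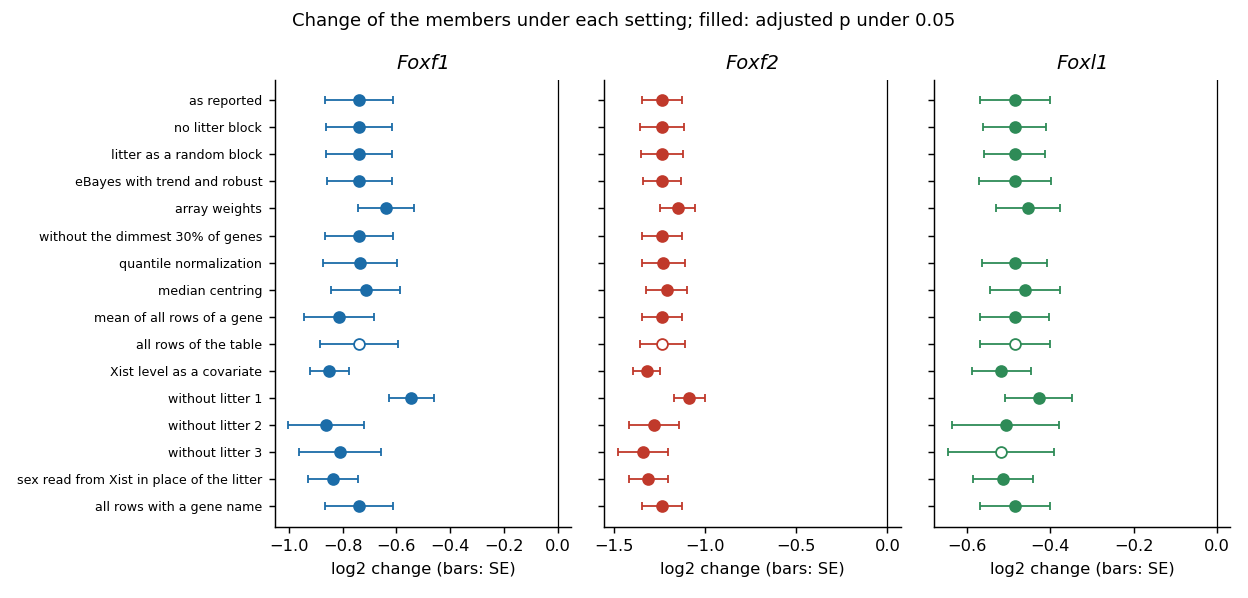
Change of Foxf1, Foxf2 and Foxl1 (log2, mutant minus control, with standard error; horizontal axes differ between panels) as reported and under each other setting, filled where adjusted p was under 0.05. Every point lies below 0, all 3 genes are open with all rows of the table in the fit, and Foxl1 is also open without litter 3 and has no point without the dimmest 30% of genes.

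The calls of all 3 genes were lost when every row of the table, including 12147 rows without a gene name, entered the fit. The adjusted p was then 0.0842 for Foxf2, 0.168 for Foxl1 and 0.192 for Foxf1, with 2 of 35557 rows called in all. The shared prior had 3.01 degrees of freedom there and 5.85 in the fit over named genes. With the 23410 rows that carry a gene name, an alternative added after the data were seen, adjusted p was 0.00273, 0.0262 and 0.0265 for Foxf2, Foxl1 and Foxf1.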

How the data were processed

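The authors deposited log2 values for 6 arrays, made with RMA per the submitters' processing notes. For its version and the genome build, both not given in the sources used here, nothing is assumed. Of 35557 rows, 21789 had 1 gene symbol in the platform annotation, and the row with the highest mean per symbol was kept (19938 genes). The members, gene lists and rules were chosen with earlier results of these data known. Named genes were the members, their neighbours, forkhead genes that passed, genes of smallest p in each list, and the 5 nearest by profile. Further genes outside this rule were named after their values were seen. Among these were Foxa1, Foxo3, Foxp2, Barx1, Hand2, Col1a1, Bmp3, Rspo3, Dcn and Lum. Dkk3, Dpt, Vim, Cspg4, Abcc9, Kcnj8, Kit, Adgre1 and Csf1r were also among them.

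Mutant was compared with control in limma 3.58.1 (R 4.3.3; lmFit, eBayes, two-sided, Benjamini-Hochberg over all genes), with the litter as a fixed block because the design text calls numbered mice littermates. The labels alone give the pairing: across genes, littermates' deviations from the mean of their group had correlations of 0.0128, 0.00516 and 0.0613. The fit has 2 residual and 5.85 prior degrees of freedom. The script was tested on simulated data. Array values carry no counts, and 3 mice per group limit the precision. RefSeq tables (GRCm38.p6) gave gene order and the promoter.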

Additional observations from a re-analysis of the deposited data

How the results depend on the processing

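Over 15 other settings, 2 of them added after the data were seen, Foxf1 kept its fall under 14 of 15, Foxf2 under 14 of 15 and Foxl1 under 12 of 14, and 0 changed sign. With all rows of the table the changes were -0.74, -1.24 and -0.49 and the calls were lost. There 2 rows passed in all, against 751 genes. In the forkhead family 0 fell and 0 rose, and 0 fell in the hedgehog, mesenchyme factor, linked gene and Foxl1-positive cell lists (limma; at an unadjusted p under 0.05, 6 lower and 1 higher in the family, and 7, 13, 8 and 14 lower in the lists). Leaving out a litter gave -0.86 to -0.55 for Foxf1, -1.34 to -1.09 for Foxf2, -0.52 to -0.43 for Foxl1, and 0 to 1 forkhead genes that rose (limma; 1 to 2 at an unadjusted p under 0.05). With array weights 1246 genes changed, and 5 hedgehog genes and 10 mesenchyme factors fell. With the Xist level as a covariate 1230 genes changed and 5 forkhead genes fell, the other 2 being Foxo3 and Foxd3. With sex in place of the litter 0 forkhead genes rose (limma; 2 at an unadjusted p under 0.05). Without the litter block, the paired design ignored, 638 genes changed and the members had adjusted p = 0.0147, 0.00138 and 0.0106 for Foxf1, Foxf2 and Foxl1, with 0 of their calls changed. Foxl1 gave no value without the dimmest 30% of genes, since it is among them. Low signal limits Foxl1 most.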
